A study of Mus musculus with 6 samples.

Results

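Glycolysis splits glucose to pyruvate in the cytosol, the pyruvate dehydrogenase complex turns pyruvate into acetyl-CoA in the mitochondrion, and the tricarboxylic acid (TCA) cycle oxidises acetyl-CoA and feeds electrons to the respiratory chain. The genes of this route, with its glucose and lactate carriers, pyruvate dehydrogenase kinases and malate-aspartate shuttle enzymes, were followed in mouse left ventricle after delivery of the RNA-binding protein Rbm24. The 49 genes were chosen by name from knowledge of the pathway, with earlier results of these data known. Each was represented by the transcript cluster with its symbol alone that had the highest mean over all arrays. A transcript cluster is the set of probes that the array assigns to one locus. Of the 49 genes, 44 had such a cluster, among 30738 genes with a cluster of their own. Gpi1, Pfkfb1, Eno1 and Mpc2 had no cluster carrying their symbol, Pfkfb2 shared its cluster with other symbols, and these 5 genes were not analysed here.

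In the heart most ATP comes from fatty acids in the mitochondria after birth, with glucose and lactate as further fuels. Fatty acid and glucose carbon meet at acetyl-CoA, and pyruvate dehydrogenase, which gates the entry of glucose carbon, is switched off by its kinases and on by its phosphatases. All enzymes of the TCA cycle proper work in the mitochondrial matrix or inner membrane, and their transcripts are abundant in the mitochondria-rich cardiomyocyte.

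Both groups were wild-type male mice of the C57/Bl6 strain that had received an AAV9 vector into the peritoneum at an age of 1 week and were killed 2 weeks later. The dose was 4000000000000 vector genomes (vg) per mouse. AAV9-Rbm24 hearts (n = 3) carried the flag-tagged mouse Rbm24 open reading frame in a vector with a CMV promoter, which is itself not restricted to one cell type. By staining for the tag, the study found the delivered protein in a subset of cardiomyocytes, and it describes the overexpression as limited to these cells. AAV9-GFP hearts (n = 3) carried a GFP vector, so the controls were also exposed to AAV9. One array was hybridised per heart, and all values are log2 signals.

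Rbm24, the delivered gene, had 14.58, 14.74 and 15.12 in AAV9-Rbm24 hearts, against 13.95, 13.63 and 13.57 in AAV9-GFP hearts. The groups did not overlap. The log2 difference, AAV9-Rbm24 minus AAV9-GFP throughout, was 1.10 with a standard error (SE) of 0.17 and an adjusted p of 0.0607 in limma, which adjusted over all 65956 clusters. Array medians lay between 5.49 and 5.67, and AAV9-GFP replicate 2 stood apart from the other 5 arrays on the first principal component of all clusters (37.4% of the variance). Of the cardiomyocyte markers 9 of 11 measured had lower means in AAV9-Rbm24 hearts, with a median log2 difference of -0.05. The summed linear signal of the list ranged from 3206427 to 3267544 in AAV9-Rbm24 hearts and from 3232396 to 3399688 in AAV9-GFP hearts, but 84.3% to 88.3% of it came from Myh6, Tnnt2 and Atp2a2, which lie near the ceiling that the arrays share and can show little difference. The 8 markers below the ceiling were split off after their values were seen. They summed to between 375050 and 428339 in AAV9-Rbm24 hearts and to between 436691 and 533817 in AAV9-GFP hearts. The sum was thus lower in every AAV9-Rbm24 heart, with 7 of 8 lower means and a median log2 difference of -0.12. Taken singly, only 3 of the 8 were lower without overlap, and their log2 differences ran from -0.36 (Ryr2) to 0.03 (Myh7). Ryr2, the brightest of the 8, weighs most in the sum. Macrophage and monocyte markers summed to between 36762 and 87647 in AAV9-Rbm24 hearts and to between 6506 and 11210 in AAV9-GFP hearts, and 13 of 14 were higher and 1 lower with no overlap between the groups. Fibroblast markers summed to between 174708 and 210128 in AAV9-Rbm24 hearts and to between 91053 and 102399 in AAV9-GFP hearts, with 7 of 9 higher without overlap. Among all clusters, 7.01% were higher and 7.71% lower without overlap. In such bulk RNA, fewer cells of a type and less RNA per cell cannot be told apart.

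No gene of the route passed an adjusted p of 0.05 in limma in either direction. The smallest adjusted p was 0.2 (Ldhb). Among all clusters tested, 0.241% were higher and 0.0258% lower in AAV9-Rbm24 hearts at this threshold. At an unadjusted p under 0.05, 10 of the 44 genes (22.7%) were lower and 1 was higher in AAV9-Rbm24 hearts. The background at that threshold was 4.33% of clusters lower and 4.08% higher. Among the 13243 clusters whose mean signal reached 8 on the log2 scale, closer to the levels of these genes, it was 5.27% lower and 8.8% higher. The analysis of variance named in the study's methods gave 12 of the 44 genes at an unadjusted p under 0.05 (11 lower and 1 higher), and 0 after Benjamini-Hochberg adjustment.

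The direction of the means was uneven. In AAV9-Rbm24 hearts 35 of the 44 genes had a lower mean and 9 a higher mean, and the median log2 difference was -0.16, beside -0.03 for all clusters, 0.03 for those with a mean of at least 8 and 0.04 for the 2950 with a mean of at least 12. The groups did not overlap for 14 genes that were lower (31.8%) and 1 that was higher in every AAV9-Rbm24 heart, against 7.71% and 7.01% of all clusters. With a fold of at least 1.5 as well as an unadjusted p under 0.05, 2 genes were lower (Slc2a4 and Ogdhl) and 1 was higher (Pfkp), and the background was 0.552% and 1.23%. The exact two-sided permutation test gave 0.1 for each of the 15 genes whose groups did not overlap, which is the smallest p that 3 hearts against 3 can give. The genes were read in the same 6 hearts and are not independent observations.

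The count of lower genes depended on single hearts. It was 6 without AAV9-GFP replicate 1, 6 without AAV9-GFP replicate 3, 4 without AAV9-Rbm24 replicate 2 and 5 without AAV9-Rbm24 replicate 3 at an unadjusted p under 0.05, and it was 11 without AAV9-GFP replicate 2 and 9 without AAV9-Rbm24 replicate 1. Centring each array on its median left 4. AAV9-Rbm24 replicate 3 held the lowest value of 22 of the 44 genes, and AAV9-GFP replicate 3 the highest value of 22. With replicate 3 of both groups left out, a setting chosen after the values of Pdk4 were seen, 3 genes were lower and 4 higher at an unadjusted p under 0.05 and the median log2 difference was -0.05.

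**Figure D1:**
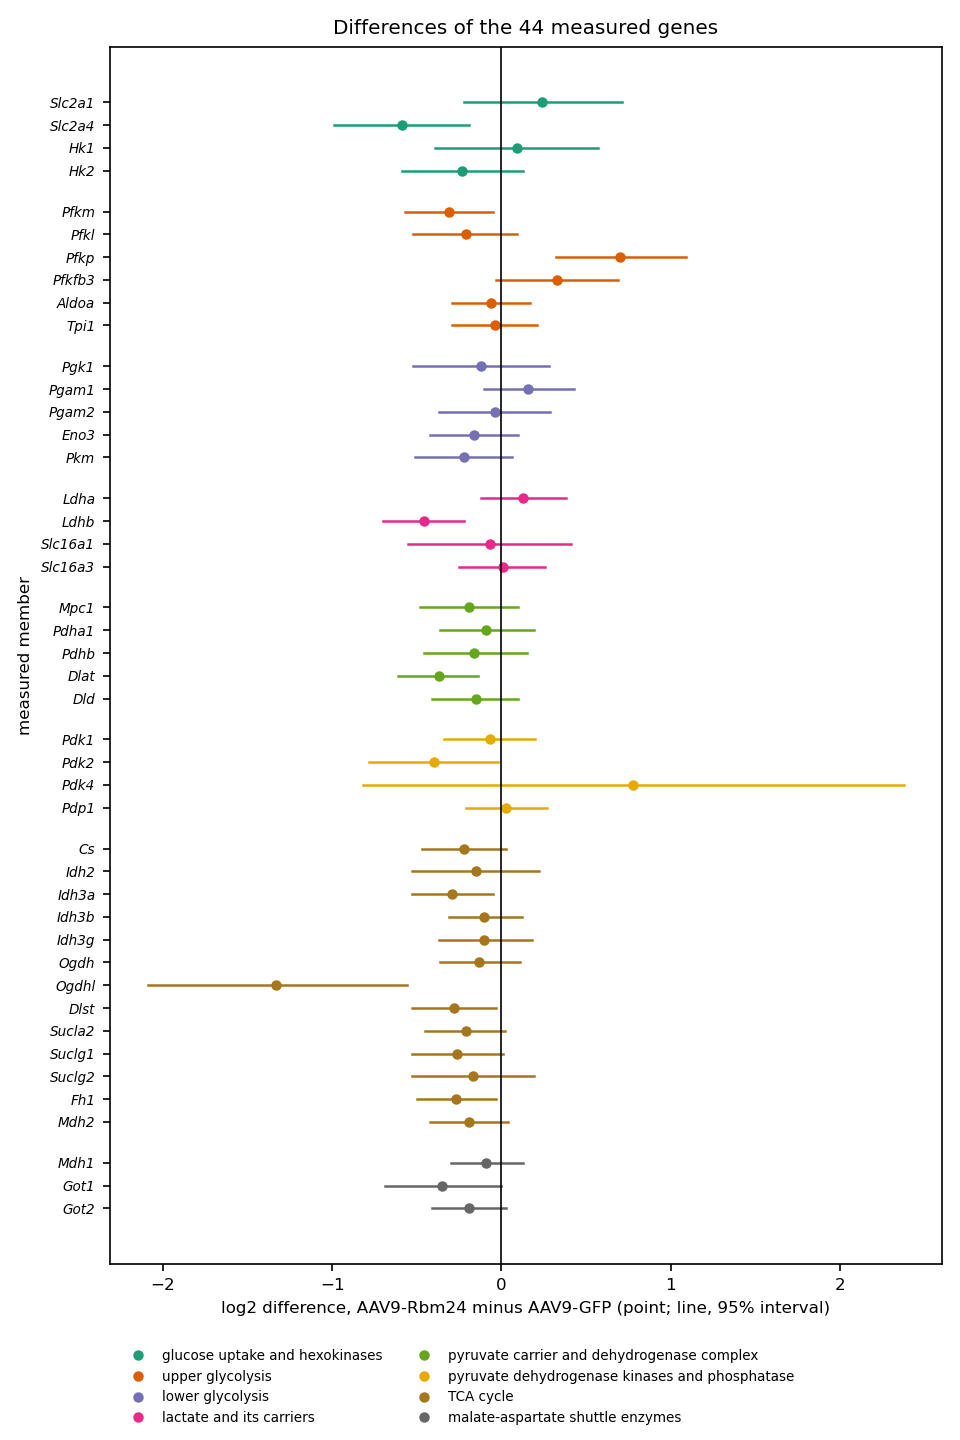
Log2 difference, AAV9-Rbm24 minus AAV9-GFP, of each of the 44 measured genes (point) with its 95% interval from limma (line), coloured by role in the pathway. All 13 TCA cycle genes lie left of 0, Ogdhl farthest at -1.33, and Pfkp (0.70) is the one gene whose whole interval lies right of 0.

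The promoters of the genes with the smallest p are shown because the sequence before a start site is where many transcription factors bind. RefSeq promoters (GRCm38.p6, 250 bases before to 50 after the start) were matched by symbol for 41 of the 44 measured genes. Slc2a4, Pdp1 and Idh3a were not matched. Those printed belong to the genes with an unadjusted p under 0.01 and a matched promoter. Capitals mark matches, on either strand, to TNAAGGTCA (the oestrogen-related receptor element), CACGTG (an E-box), ACGTG and GCGTG (cores of the hypoxia response element, the first of which lies inside CACGTG) and GGGCGG (the GC box). The windows are chr6:142507908-142508207 on the minus strand for Ldhb, chr9:50659731-50660030 on the minus strand for Dlat, chr14:32321769-32322068 on the plus strand for Ogdhl and chr13:6648722-6649021 on the minus strand for Pfkp.
Ldhb: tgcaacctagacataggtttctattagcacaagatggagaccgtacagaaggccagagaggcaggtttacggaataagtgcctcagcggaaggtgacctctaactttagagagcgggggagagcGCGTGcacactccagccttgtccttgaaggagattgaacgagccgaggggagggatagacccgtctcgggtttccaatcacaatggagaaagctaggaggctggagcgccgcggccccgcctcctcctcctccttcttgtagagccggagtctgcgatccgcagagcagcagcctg
Dlat: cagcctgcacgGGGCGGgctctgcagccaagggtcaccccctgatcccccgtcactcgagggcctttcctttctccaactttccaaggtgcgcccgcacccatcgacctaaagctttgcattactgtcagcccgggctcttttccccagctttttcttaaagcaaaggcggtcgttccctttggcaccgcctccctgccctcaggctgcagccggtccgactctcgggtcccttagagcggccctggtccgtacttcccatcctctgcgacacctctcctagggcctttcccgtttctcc
Ogdhl: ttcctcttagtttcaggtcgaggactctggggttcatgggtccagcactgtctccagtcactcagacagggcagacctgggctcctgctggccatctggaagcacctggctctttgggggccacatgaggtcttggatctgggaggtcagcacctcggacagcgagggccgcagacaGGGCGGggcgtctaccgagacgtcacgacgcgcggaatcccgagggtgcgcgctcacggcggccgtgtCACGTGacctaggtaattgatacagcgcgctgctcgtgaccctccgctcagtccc
Pfkp: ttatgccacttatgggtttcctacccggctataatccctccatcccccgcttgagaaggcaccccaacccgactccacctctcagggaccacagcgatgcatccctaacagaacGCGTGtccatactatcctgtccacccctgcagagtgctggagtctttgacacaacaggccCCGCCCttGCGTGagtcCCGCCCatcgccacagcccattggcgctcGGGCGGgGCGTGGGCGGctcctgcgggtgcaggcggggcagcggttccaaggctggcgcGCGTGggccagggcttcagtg

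Of these windows the one of Pfkp, the gene that was higher, held 4 GCGTG and 4 GGGCGG matches. Of the windows of the lower genes, Ldhb held 1 GCGTG match, Dlat 1 GGGCGG match, and Ogdhl 1 CACGTG match and 1 GGGCGG match. The 2 ACGTG matches of Ogdhl both lie inside its CACGTG, which reads the same on either strand. Over all 58 promoters of the 41 genes, CACGTG occurred in 15.5%, against 7.15% of the 32851 promoters in the table. ACGTG occurred in 44.8% against 19.6%, GCGTG in 50% against 32.4%, GGGCGG in 56.9% against 35.7% and TNAAGGTCA in 1.72% against 1.28%. Some genes, such as Ogdh and Aldoa, had several windows that overlap, so the 58 promoters are not independent and some matches were counted more than once. A match is a description of letters, and its absence says only that those letters are not in this window.

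Glucose enters the cardiomyocyte through carriers and is trapped by hexokinase. Slc2a4, the insulin-responsive carrier GLUT4, had 11.14, 11.08 and 11.14 in AAV9-Rbm24 hearts, against 11.58, 11.43 and 12.11 in AAV9-GFP hearts. The AAV9-Rbm24 values lay close together and below every AAV9-GFP value, and AAV9-GFP replicate 3 stood above its group. The log2 difference was -0.59 (SE 0.17, limma adjusted p = 0.352), and -0.39 without AAV9-GFP replicate 3. Slc2a1, the basal carrier GLUT1, had 8.13, 8.13 and 8.31 in AAV9-Rbm24 hearts, against 7.71, 7.69 and 8.43 in AAV9-GFP hearts, and the groups overlapped (log2 difference 0.24, 95% interval -0.22 to 0.71).

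Hk2, the muscle hexokinase, had 12.23, 11.98 and 12.16 in AAV9-Rbm24 hearts, against 12.37, 12.06 and 12.62 in AAV9-GFP hearts. The log2 difference of -0.23 had a 95% interval from -0.59 to 0.13 and an adjusted p of 0.755 in limma. The groups overlapped, as they did for Hk1, the widely expressed hexokinase (log2 difference 0.09, interval -0.39 to 0.57). Hk1 and Slc2a1 both had their highest value in AAV9-GFP replicate 3.

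Phosphofructokinase makes the committed step of glycolysis, and its 3 isozyme genes differed in direction. Pfkm, the muscle isozyme, had 15.97, 15.75 and 15.67 in AAV9-Rbm24 hearts, against 16.13, 16.05 and 16.14 in AAV9-GFP hearts, a log2 difference of -0.31 (SE 0.11, limma adjusted p = 0.48). Pfkp, the platelet-type isozyme that many non-muscle cells use, had 10.94, 10.81 and 11.05 in AAV9-Rbm24 hearts, against 10.24, 9.91 and 10.53 in AAV9-GFP hearts. Every AAV9-Rbm24 heart was thus below every AAV9-GFP heart for Pfkm and above every one for Pfkp. The Pfkp difference was 0.70 on the log2 scale, or 1.63-fold (SE 0.16, limma adjusted p = 0.214), and 0.55 without AAV9-GFP replicate 2, under the 1.5-fold minimum. Pfkl, the liver isozyme, had a log2 difference of -0.21 with overlapping groups. The summed macrophage and fibroblast markers, like Pfkp, were higher in every AAV9-Rbm24 heart, and their part in the Pfkp difference was not tested.

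**Figure D2:**
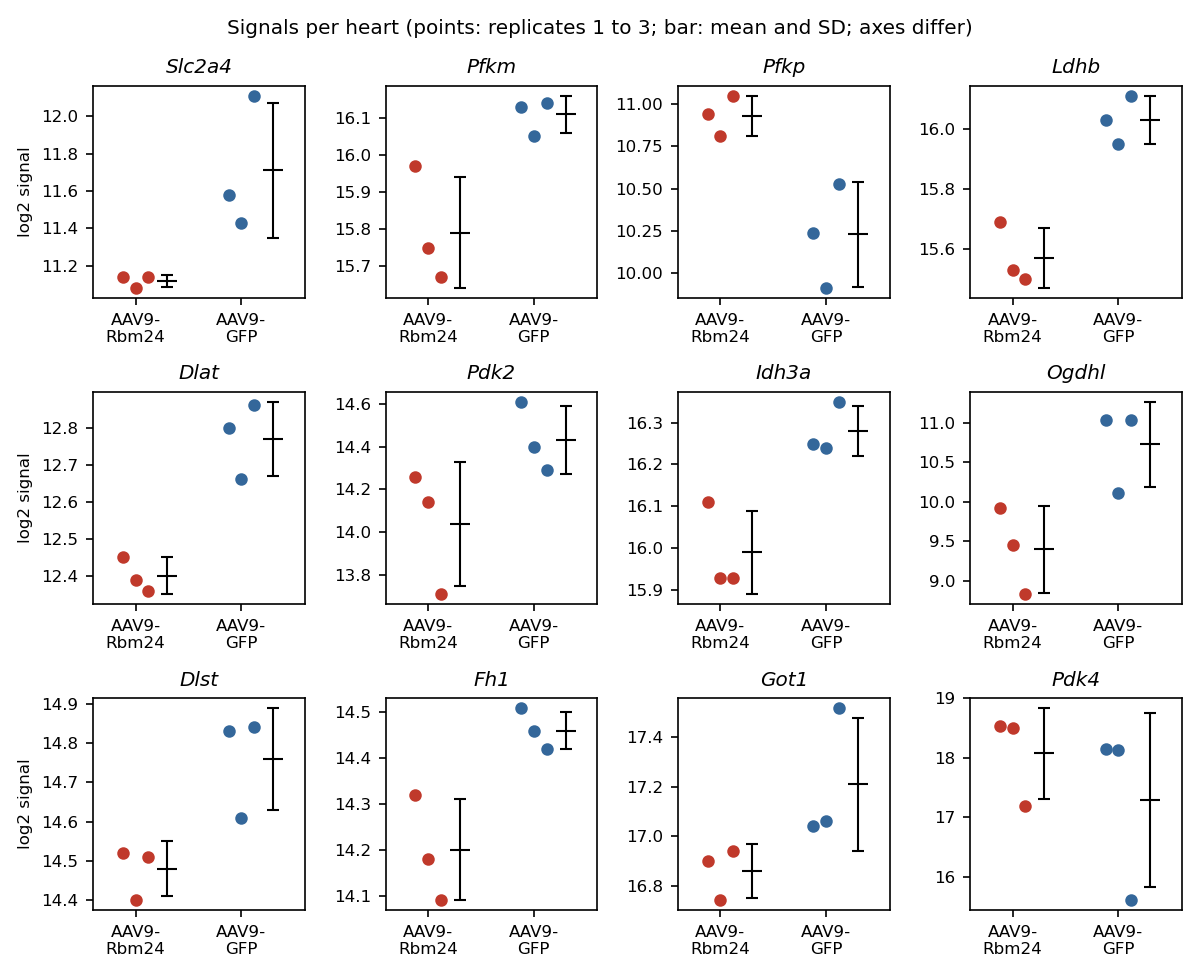
Log2 signal of each heart (points, AAV9-Rbm24 left and AAV9-GFP right, replicates 1 to 3 in order) with the group mean and SD (bar) for the 11 genes with an unadjusted p under 0.05 and for Pdk4, each panel on its own axis. The groups do not overlap in the first 11 panels, and Pfkp is the one of these that is higher in AAV9-Rbm24 hearts.

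The other genes of upper glycolysis had overlapping groups. Pfkfb3, which makes the phosphofructokinase activator fructose 2,6-bisphosphate, had 7.60, 7.64 and 7.35 in AAV9-Rbm24 hearts, against 6.99, 7.11 and 7.49 in AAV9-GFP hearts. The log2 difference of 0.33 had a 95% interval from -0.03 to 0.69. Aldolase (Aldoa) and triose phosphate isomerase (Tpi1) had log2 differences of -0.06 and -0.04, with intervals from -0.29 to 0.17 and from -0.29 to 0.21.

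Lower glycolysis, where ATP is made, held no gene at an unadjusted p under 0.05 among 5 measured, and all 5 had overlapping groups. The lowest log2 difference was that of Pkm, pyruvate kinase, at -0.22 (interval -0.51 to 0.06), and the highest that of Pgam1, the broadly expressed phosphoglycerate mutase, at 0.16 (interval -0.10 to 0.43). Pgam2, the muscle mutase, had -0.04. Eno3, the muscle enolase and the brightest of these genes, had 17.38, 17.25 and 17.42 in AAV9-Rbm24 hearts, against 17.45, 17.41 and 17.67 in AAV9-GFP hearts. Pgk1, phosphoglycerate kinase, had 2 clusters. The brighter one, counted among the 44, carries an identifier of chromosome 12 and had a log2 difference of -0.12, while the other carries one of chromosome X, where RefSeq places Pgk1, and had -0.11. Several glycolytic genes have processed copies elsewhere in the genome, so which locus such a cluster reads is uncertain. AAV9-GFP replicate 3 was the highest heart for Pgk1, Pgam2, Eno3 and Pkm.

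Lactate dehydrogenase interconverts pyruvate and lactate, and its 2 subunit genes lay on opposite sides of 0. Ldhb, the heart-type subunit, had 15.69, 15.53 and 15.50 in AAV9-Rbm24 hearts, against 16.03, 15.95 and 16.11 in AAV9-GFP hearts. All AAV9-Rbm24 hearts were lower. The log2 difference was -0.46 (SE 0.10, 95% interval -0.70 to -0.22, limma adjusted p = 0.2). The log2 difference lay between -0.52 and -0.38 under the 18 alternative settings. Several of these change only the test or the clusters tested and cannot move it. Ldha, the muscle-type subunit, had 12.57, 12.52 and 12.71 in AAV9-Rbm24 hearts, against 12.43, 12.39 and 12.60 in AAV9-GFP hearts. The groups overlapped (log2 difference 0.13, interval -0.12 to 0.38). The difference between the 2 subunits was not tested. The lactate carriers Slc16a1 (MCT1) and Slc16a3 (MCT4) had log2 differences of -0.07 and 0.01, and Slc16a3 was the dimmest of the 44 genes with a mean of 5.67, near the array medians.

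Pyruvate enters the mitochondrion through the Mpc1 and Mpc2 carrier and is oxidised by a complex of Pdha1 and Pdhb (E1), Dlat (E2) and Dld (E3). All 5 of these genes that were measured had lower means in AAV9-Rbm24 hearts, and the groups did not overlap for Dlat alone. Dlat, the acetyltransferase core, had 12.45, 12.39 and 12.36 in AAV9-Rbm24 hearts, against 12.80, 12.66 and 12.86 in AAV9-GFP hearts. The log2 difference was -0.37 (SE 0.10, limma adjusted p = 0.295). Pdha1, the catalytic E1 subunit, had 16.64, 16.51 and 16.29 in AAV9-Rbm24 hearts, against 16.65, 16.50 and 16.54 in AAV9-GFP hearts. Only AAV9-Rbm24 replicate 3 lay below the AAV9-GFP range, and the log2 difference of -0.09 became 0.01 without that heart. Pdhb had 17.57, 17.58 and 17.16 in AAV9-Rbm24 hearts, against 17.58, 17.56 and 17.63 in AAV9-GFP hearts, so that the same heart was again the low one. Mpc1, Pdhb and Dld had log2 differences of -0.19, -0.16 and -0.15, each with an interval that included 0.

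Of the kinases that switch the complex off, Pdk2 did not overlap between the groups and Pdk4 had the widest spread. Pdk2 had 14.26, 14.14 and 13.71 in AAV9-Rbm24 hearts, against 14.61, 14.40 and 14.29 in AAV9-GFP hearts. The groups did not overlap but nearly touched, and the log2 difference was -0.40 (SE 0.16, limma adjusted p = 0.564), or -0.23 without AAV9-Rbm24 replicate 3. Pdk1 and the phosphatase Pdp1, which switches the complex on, had log2 differences of -0.07 and 0.03 with overlapping groups.

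Pdk4, the kinase whose transcript is known to be induced by fasting and by fatty acids, had 18.53, 18.49 and 17.18 in AAV9-Rbm24 hearts, against 18.14, 18.13 and 15.60 in AAV9-GFP hearts. Replicate 3 was the low heart in both groups. The pooled SD within groups was 1.17 on the log2 scale, the widest of the 44 genes, whose median was 0.13. The log2 difference of 0.78 had a 95% interval from -0.82 to 2.38 (limma adjusted p = 0.815), and it was -0.07 without AAV9-GFP replicate 3, 1.22 without AAV9-Rbm24 replicate 3 and 0.38 without replicate 3 of either group.

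Other genes showed the same low hearts. Txnip and Fbp2 belong to a list of other glycolysis and gluconeogenesis genes. Txnip was named because its p was among the smallest of that list. Fbp2 and the remaining genes were chosen after their values had been seen. Txnip, an inhibitor of glucose uptake, had 18.35, 18.22 and 17.60 in AAV9-Rbm24 hearts, against 17.63, 17.80 and 16.94 in AAV9-GFP hearts. Fbp2, the muscle fructose bisphosphatase, had 10.97, 10.81 and 8.99 in AAV9-Rbm24 hearts, against 11.14, 11.12 and 9.37 in AAV9-GFP hearts. For both genes replicate 3 was the lowest heart of its group. Acot2, a mitochondrial acyl-CoA thioesterase, had 17.27, 17.18 and 15.35 in AAV9-Rbm24 hearts, against 17.26, 17.15 and 15.21 in AAV9-GFP hearts. Acot1, its cytosolic relative, had 10.76, 10.51 and 8.84 in AAV9-Rbm24 hearts, against 11.04, 10.68 and 8.86 in AAV9-GFP hearts. Dbp, a clock-controlled transcription factor, ran the other way, with 11.99, 12.00 and 12.31 in AAV9-Rbm24 hearts, against 11.96, 12.03 and 13.01 in AAV9-GFP hearts. The labels give no feeding state and no hour of death.

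**Figure D3:**
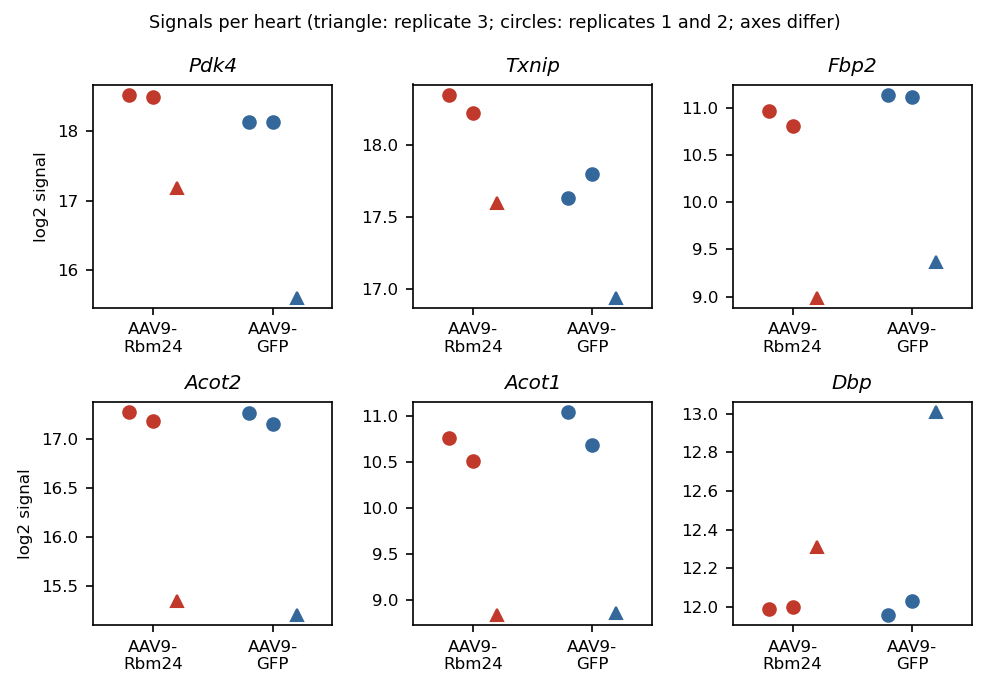
Log2 signal of each heart for Pdk4 and for 5 genes with values of a like or opposite pattern (AAV9-Rbm24 left, red; AAV9-GFP right, blue), with replicate 3 as a triangle and each panel on its own axis. Replicate 3 is the lowest heart of its group in every panel but that of Dbp, where it is the highest, and for Pdk4 it stands at 17.18 in AAV9-Rbm24 and 15.60 in AAV9-GFP hearts.

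All 13 TCA cycle genes had lower means in AAV9-Rbm24 hearts, with a median log2 difference of -0.21, and 7 of them were lower in every AAV9-Rbm24 heart (53.8%, against 7.71% of all clusters). At an unadjusted p under 0.05, 4 of the 13 (30.8%) were lower and none was higher, against 4.33% lower and 4.08% higher among all clusters. None of the 13 passed the adjusted threshold. The cycle begins with citrate synthase (Cs), whose enzyme activity, not measured here, is the usual yardstick of mitochondrial content. Cs had 18.29, 18.18 and 17.99 in AAV9-Rbm24 hearts, against 18.41, 18.36 and 18.35 in AAV9-GFP hearts. The groups did not overlap, and the log2 difference was -0.22 (95% interval -0.47 to 0.03, limma adjusted p = 0.655).

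Isocitrate dehydrogenase follows, in an NAD-linked form (Idh3a, Idh3b, Idh3g) and an NADP-linked form (Idh2). Idh3a, the catalytic subunit, had 16.11, 15.93 and 15.93 in AAV9-Rbm24 hearts, against 16.25, 16.24 and 16.35 in AAV9-GFP hearts, a log2 difference of -0.29 (SE 0.10, limma adjusted p = 0.471). Its partners Idh3b and Idh3g both had -0.10, with overlapping groups. Idh2 had 15.06, 14.88 and 14.43 in AAV9-Rbm24 hearts, against 14.91, 14.94 and 14.99 in AAV9-GFP hearts. AAV9-Rbm24 replicate 1 was above and replicates 2 and 3 were below all AAV9-GFP hearts, and the log2 difference of -0.15 was 0.03 without AAV9-Rbm24 replicate 3 and 0.05 without replicate 3 of either group.

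The oxoglutarate dehydrogenase complex held the lowest log2 difference of the 44 genes. Ogdhl, a paralogue of the E1 subunit, had 9.92, 9.45 and 8.83 in AAV9-Rbm24 hearts, against 11.04, 10.11 and 11.04 in AAV9-GFP hearts. The highest AAV9-Rbm24 heart and the lowest AAV9-GFP heart lay close together, and both groups were spread (SD 0.55 and 0.54). The log2 difference was -1.33 (SE 0.33, 95% interval -2.09 to -0.56, limma adjusted p = 0.246), which is 0.398-fold. It was -1.04 without AAV9-Rbm24 replicate 3 and -0.89 without replicate 3 of both groups. Ogdh, the main E1 subunit, had 16.81, 16.68 and 16.76 in AAV9-Rbm24 hearts, against 16.84, 16.80 and 17.00 in AAV9-GFP hearts. The groups overlapped, with a log2 difference of -0.13 (interval -0.36 to 0.11). Dlst, the E2 core, had 14.52, 14.40 and 14.51 in AAV9-Rbm24 hearts, against 14.83, 14.61 and 14.84 in AAV9-GFP hearts, a log2 difference of -0.28 (SE 0.11, limma adjusted p = 0.521).

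The later steps lay in the same direction. Fh1, fumarase, had 14.32, 14.18 and 14.09 in AAV9-Rbm24 hearts, against 14.51, 14.46 and 14.42 in AAV9-GFP hearts, a log2 difference of -0.27 (SE 0.10, limma adjusted p = 0.518). Sucla2, the ATP-forming succinate-CoA ligase subunit, and Mdh2, mitochondrial malate dehydrogenase, were also lower in every AAV9-Rbm24 heart, with log2 differences of -0.21 and -0.19 and intervals that reached 0.02 and 0.04. Suclg1 and Suclg2, the other ligase subunits, had -0.26 and -0.17 with overlapping groups. Over the 13 genes, the median deviation from each gene's mean was 0.01, -0.12 and -0.22 in AAV9-Rbm24 replicates 1 to 3, against 0.15, 0.06 and 0.11 in the AAV9-GFP replicates. All 3 AAV9-Rbm24 values lay below the 3 AAV9-GFP values. Of the 11 cardiomyocyte markers measured, 3 were also lower in every AAV9-Rbm24 heart (27.3%, against 7.71% of all clusters), and the groups overlapped for the rest. The 3 were Ryr2, the calcium release channel (log2 difference -0.36, limma adjusted p = 0.51), Tnni3 (-0.20) and Myl3 (-0.18). The sum of the 8 cardiomyocyte markers below the ceiling, in which Ryr2 weighs most, was lower in every AAV9-Rbm24 heart too. The part of these, or of the higher macrophage and fibroblast markers, in the lower signals of the TCA cycle genes was not tested.

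**Figure D4:**
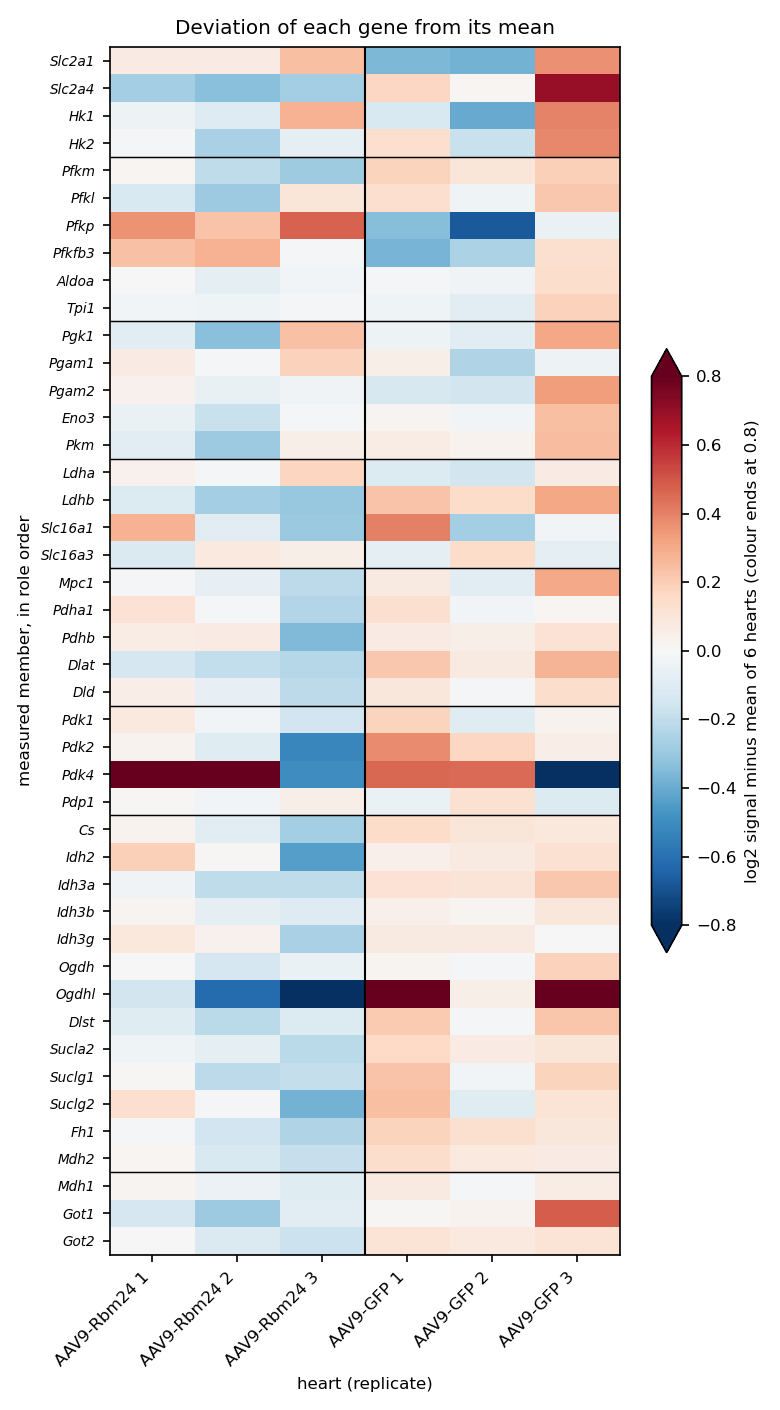
Log2 signal of each gene (rows, in the order of the pathway, black lines between roles) in each heart (columns, AAV9-Rbm24 left, AAV9-GFP right) minus the gene's mean over the 6 hearts, with red above and blue below the mean. AAV9-Rbm24 replicate 3 holds the lowest value of 22 genes and AAV9-GFP replicate 3 the highest value of 22.

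The malate-aspartate shuttle carries the reducing power of glycolysis into the mitochondrion. Got1, the cytosolic aspartate aminotransferase, had 16.90, 16.74 and 16.94 in AAV9-Rbm24 hearts, against 17.04, 17.06 and 17.52 in AAV9-GFP hearts. Every AAV9-Rbm24 heart was lower, and AAV9-GFP replicate 3 was again the highest. The log2 difference of -0.35 (SE 0.15, limma adjusted p = 0.59) was -0.19 without AAV9-GFP replicate 3. Got2, its mitochondrial counterpart, had 17.06, 16.95 and 16.89 in AAV9-Rbm24 hearts, against 17.17, 17.14 and 17.17 in AAV9-GFP hearts, with a log2 difference of -0.19. Mdh1, cytosolic malate dehydrogenase, had -0.09 with overlapping groups.

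**Figure D5:**
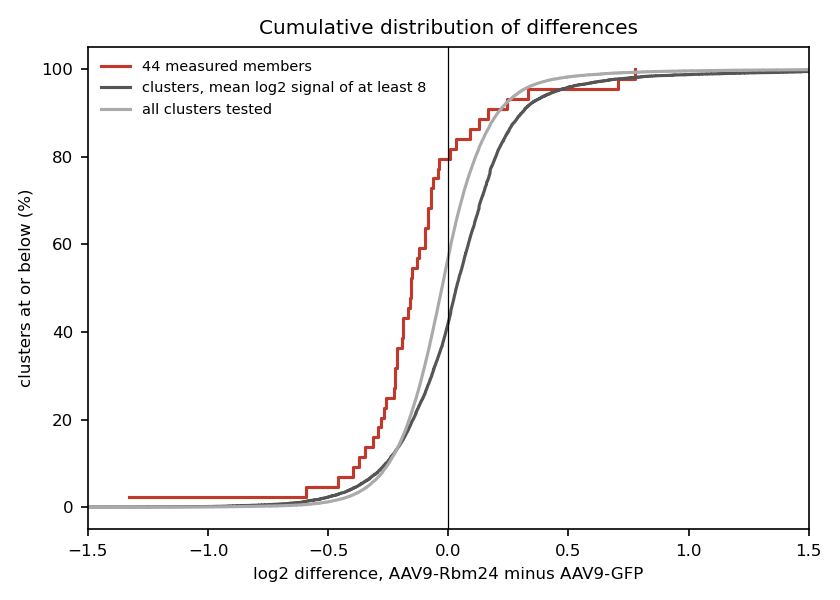
Cumulative share of clusters (y axis, %) at or below each log2 difference, AAV9-Rbm24 minus AAV9-GFP (x axis), for the 44 measured genes (red), the 13243 clusters whose mean signal reached 8 (dark grey) and all 65956 clusters tested (light grey). The curve of the 44 genes lies to the left of the others below a difference of 0, with a median of -0.16 against 0.03 and -0.03.

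Other genes of the same pathways, taken from lists drawn up with earlier results of these data known, gave no adjusted call either. Of 20 other pyruvate and TCA cycle genes measured, 16 had lower means in AAV9-Rbm24 hearts, and the median log2 difference was -0.15. At an unadjusted p under 0.05, 4 of them (20%) were lower and none higher, beside 4.33% lower and 4.08% higher among all clusters. Pdp2, a second pyruvate dehydrogenase phosphatase, had a log2 difference of -0.45 (limma adjusted p = 0.345), Pdpr, the phosphatase's regulatory subunit, -0.38 (0.396) and Sdhc, a membrane subunit of succinate dehydrogenase, -0.37 (0.417). The last of them, Pdha2, the testis E1 subunit, had a signal that was not above the array medians. Sdha, Sdhb and Sdhd, the remaining succinate dehydrogenase subunits, had log2 differences of -0.18, -0.19 and -0.21.

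Of 7 mitochondrial carriers of pathway intermediates, Slc25a11, the oxoglutarate carrier, was lower at an unadjusted p under 0.05 (14.3% of the list, log2 difference -0.30, limma adjusted p = 0.516), and 6 of the 7 had lower means. Of 25 other glycolysis and gluconeogenesis genes, Slc2a12, the GLUT12 carrier, was lower at that threshold (4% of the list, log2 difference -0.43, limma adjusted p = 0.454), and the median was -0.02. Among all clusters, 4.33% were lower at that threshold, about the share of these 25 genes. The 14.3% of the mitochondrial carriers rested on 1 gene. Txnip, at 0.60, had a 95% interval from -0.02 to 1.22.

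Of 16 glycogen genes, 2 (12.5%) were lower at an unadjusted p under 0.05 and none higher, beside 4.33% lower among all clusters. Phkg1, the muscle catalytic subunit of phosphorylase kinase, had 7.51, 7.19 and 7.07 in AAV9-Rbm24 hearts, against 8.57, 8.06 and 8.13 in AAV9-GFP hearts. The groups were well apart, and the log2 difference of -1.00 had an adjusted p of 0.0885 in limma. Gys1, muscle glycogen synthase, had a log2 difference of -0.37 (limma adjusted p = 0.563), and Pygm, muscle glycogen phosphorylase, -0.16. None of 6 pentose phosphate genes passed an unadjusted p of 0.05, and their median log2 difference was -0.06.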

How the data were processed

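Left ventricular RNA of 6 hearts was hybridised to Affymetrix Mouse Transcriptome Array 1.0, with 1 array per heart, 1 sample per array and 1 colour. Log2 signals were deposited for every transcript cluster of each array; per the labels they were made with RMA in Affymetrix Expression Console, which corrects background, normalizes quantiles and summarises probes. Genome build, library file and software versions were not given in the sources used here. Scanner files were not analysed here. RMA narrows differences near the ceiling (19.93) and near background.

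Of 72688 rows, 6732 controls were left out and 65956 clusters were tested with limma 3.58.1 in R 4.3.3 (lmFit, eBayes, 3.77 prior degrees of freedom) without a filter on dim signals. P values were adjusted by Benjamini-Hochberg over all clusters, at a threshold of 0.05. Of the clusters, 31292 had 1 gene symbol in the platform annotation, 1522 several and 33142 none. Those following the array maximum within 0.005 (71, among them Actc1 and clusters that carry Gapdh beside another symbol) were not reported. The procedure was tested on simulated data. The study's methods used a 1.5-fold minimum with an analysis of variance p under 0.05, before adjustment.

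The genes, lists and tests were chosen with earlier results of these data known. Values in every heart were given for genes with an unadjusted p under 0.05, for Rbm24 and for genes that carry or gate a step (Slc2a4, Hk2, Pfkm, Ldha, Ldhb, Pdk4, Pdha1, Cs, Ogdhl, Ogdh, Idh2), and for other genes where isozymes were compared. From each other list up to 4 genes with the smallest p could be named. Genes named beyond these rules were chosen after their values were seen. Endothelial and smooth muscle markers had median log2 differences of -0.03 and -0.06, and no gene of the 2 lists passed an unadjusted p of 0.05. Markers of T, B and NK cells, neutrophils, fat and Schwann cells were mostly not above the array medians, the red blood cell list rested on 2 genes, and the skeletal muscle list had no call. Alternatives covered filters on dim signals, the variance model, scaling, array weights, a block for the replicate number, the fold minimum, the study's test and single hearts left out. The number of arrays limits the precision. Separate animals are stated by the methods, and littermates are not stated.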

Additional observations from a re-analysis of the deposited data

How the results depend on the processing

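No alternative gave an adjusted call for any of the 44 genes. The number lower at the fold and p thresholds (2) was 1 after centring on the array median, 10 with a fold minimum of 1.2 and 1 with a fold minimum of 2. The number higher (1) was 2 with the replicate number as a block and 0 with a fold minimum of 2. Leaving out 1 heart at a time gave 0 to 1 higher (0 without AAV9-GFP replicate 2) and 1 to 2 lower (1 without AAV9-GFP replicate 3 or AAV9-Rbm24 replicate 2), and median log2 differences from -0.22 to -0.11. Without replicate 3 of both groups, a setting added after the data were seen, 1 gene was lower, 1 higher, and the median was -0.05. At an unadjusted p under 0.05, the 10 lower genes were 15 with an intensity trend, 14 with renewed quantile normalization or array weights, and 4 after centring on the array median. Pdk4 turned to -0.07 without AAV9-GFP replicate 3, Pdha1 to 0.01 and Idh2 to 0.03 without AAV9-Rbm24 replicate 3, and Idh2 to 0.05 without replicate 3 of both groups. Leaving out other single hearts took Pdha1 down to -0.17, Idh2 down to -0.29 and Pdk4 up to 1.22. The cause was not tested. Of 688 alternative values of 39 named genes, 679 kept direction and side of the threshold, 4 reversed and 5 newly passed the adjusted threshold (4 of Rbm24 and 1 of Phkg1). The 679 are no measure of stability. Several settings change only the test or the clusters tested, so that no direction could reverse in them, and many of the 39 genes were named for a small p.

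Whether the replicate numbers pair the samples was not settled. Deviations of same-numbered hearts correlated at 0.027, 0.096 and 0.152 for replicates 1, 2 and 3. For AAV9-Rbm24 replicates 2 and 3, the same-numbered AAV9-GFP heart gave the highest correlation. AAV9-Rbm24 replicate 1 correlated slightly better with AAV9-GFP replicate 2 (0.033). With the number as a block, the gene gained at the fold and p thresholds was Pdk4, with the same log2 difference of 0.78 and a limma adjusted p of 0.433. It was higher in AAV9-Rbm24 hearts in 3 of 3 same-numbered comparisons, by 0.39, 0.36 and 1.58. With the block, 11 genes were lower and 2 higher at an unadjusted p under 0.05, and 76 clusters were higher and 7 lower at the adjusted threshold, against 159 and 17 without it. The block changed no call of the 44 genes at the adjusted threshold. Background correction, slide and scan date could not be varied from the deposited table. Slc16a3, at a mean of 5.67, is near the array medians, where a difference can be compressed.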

Other observations

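In 2 further genes outside the pathway lists, named after their values were seen, replicate 3 also stood apart in both groups, low for Decr1 as for Pdk4 and high for Nr1d1. Decr1, a mitochondrial enzyme of fatty acid oxidation, had 15.99, 15.84 and 15.05 in AAV9-Rbm24 hearts, against 16.06, 15.94 and 15.31 in AAV9-GFP hearts. Nr1d1, the clock repressor REV-ERB alpha, had 11.41, 11.15 and 12.04 in AAV9-Rbm24 hearts, against 11.19, 11.43 and 12.19 in AAV9-GFP hearts. Replicate 3 of each group was the lowest heart for Decr1 and the highest for Nr1d1, and for both genes the group means differed by less than the spread within groups (log2 differences -0.15 and -0.07).

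Angptl4, a secreted inhibitor of lipoprotein lipase, combined the pattern with a difference between groups. It had 9.06, 9.20 and 8.26 in AAV9-Rbm24 hearts, against 7.78, 8.23 and 6.29 in AAV9-GFP hearts. The groups did not overlap but nearly touched (8.26 against 8.23), and the log2 difference was 1.41 (SE 0.48, limma adjusted p = 0.45). The summed linear signal of the skeletal muscle markers was 7991, 5094 and 14152 in AAV9-Rbm24 hearts, against 3806, 2281 and 11107 in AAV9-GFP hearts, with replicate 3 the highest of each group. The sum was carried by Acta1, the skeletal alpha-actin gene, which the heart also expresses, and Myh4 and Mylpf were not above the array medians.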
